A study of Mus musculus with 6 samples.

Results

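The genes described here encode the cytosolic sensors of nucleic acids, measured in the mouse macrophage line RAW264.7, and they were chosen by name: Ddx58, Ifih1, Dhx58, Mavs, Zbp1, Cgas (listed as Mb21d1), Tmem173, Eif2ak2, Adar and Trex1. All 10 had a row among the 54532 genes of the deposited count table. RNA was sequenced from 3 libraries of sorted RAW264.7 cells cocultured for 48 h with TTJ cells and from 3 libraries of sorted RAW264.7 cells grown alone (replicates A, B and C in each group). The labels give every RAW264.7 library as wild type, and both groups shared the same serum-containing medium. TTJ cells lack Tsc2, a brake on the growth kinase mTORC1, and come from an angiomyolipoma of a mouse model of tuberous sclerosis complex. The macrophages are 1 established line, whether replicates came from separate cultures is not stated in the labels, and p-values describe a spread among libraries that could be purely technical. Gene coordinates are on mm10, where Mavs and Adar lie on the plus strand and the other 8 genes on the minus strand. The study's design text asks how such cells alter macrophage polarization.

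Cells recognise RNA or DNA in the cytosol as a sign of infection or damage. RIG-I (gene Ddx58) and MDA5 (Ifih1) bind viral RNA and signal through MAVS at mitochondria, while cGAS binds DNA and makes a cyclic dinucleotide that activates STING (Tmem173) at the endoplasmic reticulum. Both routes switch on type I interferon genes, and many sensor genes are themselves induced by interferon. ZBP1 binds nucleic acids in the Z conformation and can start necroptosis, PKR (Eif2ak2) halts translation, and ADAR1 (Adar) and TREX1 edit or degrade nucleic acids of the cell itself and so restrain the sensors.

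A RefSeq promoter window was given for 7 of the genes (GRCm38.p6; 250 bases before to 50 bases after an annotated start), whereas Dhx58, Zbp1 and Tmem173 had none. These windows were searched on both strands for the core of the interferon-stimulated response element, GAAANNGAAA, which interferon-activated factors bind, because most of the sensor genes were higher in coculture. A match was found in 3 of the 7 genes, namely Ddx58, Ifih1 and Eif2ak2, while 3.99% of 27025 genes (3.44% of all windows) held one. The core of the gamma-activated site, TTCNNNGAA, which reads the same on both strands, was found in windows of 2 genes, Eif2ak2 and Adar, and in 9.55% of all genes (8.30% of windows). The windows of the 3 genes with a response element and that of Cgas, which had neither motif, are shown 5′ to 3′ on the strand of the gene, all 4 of them on the minus strand, with motif matches in capitals. A match is a run of letters and not a measured binding site. Mavs (log2 fold change 0.40) and Adar (0.23), which held no response element match, were also higher in coculture. Whether any match bears on a change was not tested.
Ddx58, chr4:40239776-40240075: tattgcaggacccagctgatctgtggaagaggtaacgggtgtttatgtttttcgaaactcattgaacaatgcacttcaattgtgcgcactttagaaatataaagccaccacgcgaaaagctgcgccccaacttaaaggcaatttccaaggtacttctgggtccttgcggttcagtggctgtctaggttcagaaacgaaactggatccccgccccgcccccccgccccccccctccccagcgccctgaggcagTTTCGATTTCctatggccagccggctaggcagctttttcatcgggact
Ifih1, chr2:62646206-62646505: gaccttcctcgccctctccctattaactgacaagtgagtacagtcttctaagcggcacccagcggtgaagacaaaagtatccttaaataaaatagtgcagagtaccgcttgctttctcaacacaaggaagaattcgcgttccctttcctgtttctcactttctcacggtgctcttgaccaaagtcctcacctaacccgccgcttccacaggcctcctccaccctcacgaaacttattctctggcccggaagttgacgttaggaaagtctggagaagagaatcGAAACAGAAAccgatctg
Eif2ak2, chr17:78882523-78882822: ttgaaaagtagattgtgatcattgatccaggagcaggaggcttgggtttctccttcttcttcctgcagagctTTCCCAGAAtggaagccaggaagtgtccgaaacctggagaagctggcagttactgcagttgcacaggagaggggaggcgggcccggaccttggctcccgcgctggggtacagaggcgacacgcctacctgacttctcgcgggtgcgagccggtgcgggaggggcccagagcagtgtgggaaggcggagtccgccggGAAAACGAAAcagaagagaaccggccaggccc
Cgas, chr9:78443188-78443487: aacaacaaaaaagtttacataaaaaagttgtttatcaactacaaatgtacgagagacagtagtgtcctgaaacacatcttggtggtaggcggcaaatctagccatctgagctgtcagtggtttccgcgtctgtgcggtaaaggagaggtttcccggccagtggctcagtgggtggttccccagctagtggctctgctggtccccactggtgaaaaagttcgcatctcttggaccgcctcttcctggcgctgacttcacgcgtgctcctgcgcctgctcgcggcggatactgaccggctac
The response element began 2 bases past the annotated start in Ddx58, 18 bases past it in Eif2ak2 and 32 bases past it in Ifih1. In Eif2ak2 the gamma-activated site lay upstream and began 178 bases before the start. Of the 3 windows of Adar, which cover its alternative starts, the window at chr3:89730468-89730767 held a gamma-activated site that began 22 bases past that start. Only exact matches were counted, and near matches were not searched for in any window. The 2 windows of Trex1 and the window of Mavs held neither motif.

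Total counts ran from 14329487 to 16976782 in cocultured libraries and from 14621832 to 17358280 in lone ones. Across the 12972 genes that passed a filter on low counts, 21.7% were called higher and 15.2% lower in coculture by edgeR's quasi-likelihood test at an adjusted p under 0.05, which is the threshold used throughout. Every cocultured library lay above every lone library for 26.1% of genes and below every lone library for 21.0%. The 8 macrophage markers checked were counted in all libraries and summed to 10830 to 11080 CPM (counts scaled to TMM-adjusted library depth) in coculture, against 10230 to 10310 CPM alone, most of it Lyz2. Of these 8, Lyz2 (log2 0.10), Adgre1 (0.25), Itgam (0.89) and Fcgr1 (1.17) were called higher, Spi1 (-0.23) and Cd68 (-0.099) lower, and Csf1r and Ptprc did not pass. Markers of another cell type came with coculture. Renal and simple epithelial markers (15 genes) summed to 364.6 to 420.1 CPM in cocultured libraries, against 0 to 0.115 CPM in lone libraries, and 11 of them were called higher and 0 lower. Of 10 mesenchymal and smooth muscle markers only 4 were tested, with 3 called higher and 0 lower. The 10 summed to 59.3 to 63.8 CPM in coculture and 1.79 to 1.93 CPM alone. Most of the cocultured sum was Col5a1 (mean 25.6 CPM), Timp3 (17.9) and Cav1 (15.2). Acta2 did not pass, and Col1a1, Col1a2, Tagln and Pdgfrb were too low to be tested. Of the epithelial markers, Krt19 and Cldn7 were also too low to be tested, and Cldn7 had no count in coculture. Genes with no count alone and at least 10 in coculture numbered 688 and took 0.282% to 0.314% of the counts of cocultured libraries. Epcam, Lhx1, Col3a1 and Pdgfra, which also mark such cells, had no count in any library. The mitochondrial share of counts was 1.34% to 1.41% in coculture and 1.55% to 1.75% alone. These levels stand beside every result below, and their part in each was not tested.

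Of the 10 sensor genes 9 passed the filter, and 8 of these were called higher and 0 lower in coculture. The ninth gene, Cgas, did not pass the test. For 7 of the 9 every cocultured library lay above every lone one. The median log2 fold change of the 9 genes was 0.38, compared with 0.0029 over all genes tested. Because the sensor genes were chosen with earlier results of these data known, their count and median are no independent evidence. All 9 were well counted in both groups, with no library under 10.9 CPM, so that none passed the filter through 1 group alone. The deposited FPKM values (fragments scaled to gene length and library depth) of the sensor genes summed to 233.6 ± 5.69 in coculture and 178.5 ± 2.25 alone (SD, n = 3). In bulk samples a larger number of cells with a transcript and more transcript per cell cannot be told apart.

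**Figure D1:**
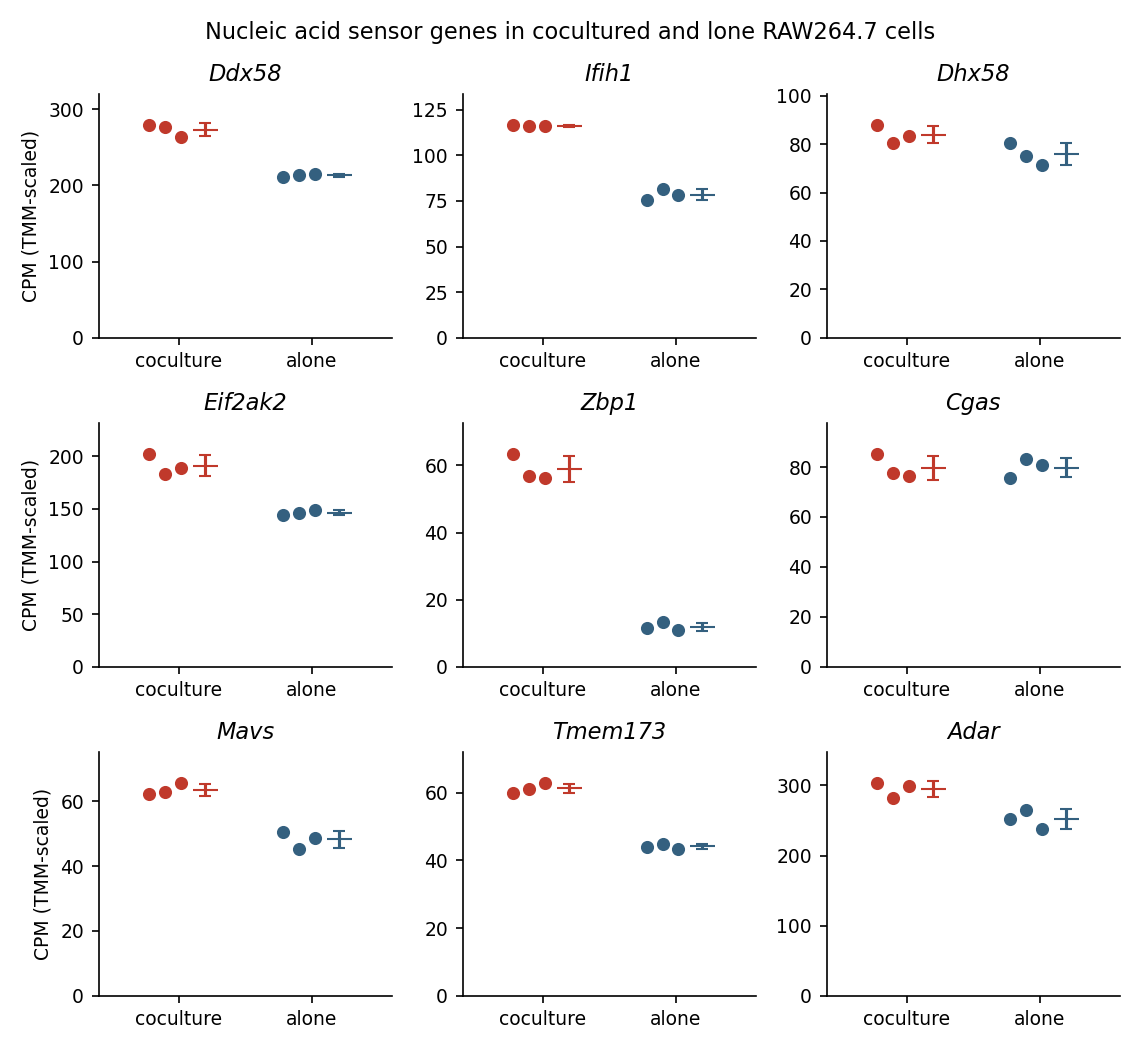
Level of each tested sensor gene in CPM (vertical axes, each from 0) in the 3 cocultured and 3 lone libraries. Points are libraries A, B and C from left to right and bars show mean ± SD; groups overlap for Dhx58 and Cgas and lie apart for the other 7 genes.

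Zbp1 (ENSMUSG00000027514), the sensor of Z-form nucleic acids, changed most among the sensor genes. It had 63.3, 57.0 and 56.3 CPM in cocultured libraries A, B and C, against 11.4, 13.3 and 10.9 CPM in lone libraries A, B and C. The lowest cocultured library was far above the highest lone one. Zbp1 was 4.94-fold higher (log2 2.31, SE 0.0871, 95% interval 2.13 to 2.49, adjusted p = 5.04e-17, edgeR quasi-likelihood test), on 2755 counts over the cocultured and 578 over the lone libraries. The lower end of its interval stood above the upper end of every other sensor gene, the highest of which was 0.67. Of all genes tested 6.27% had a larger log2 fold change than Zbp1. That pool includes genes with no count in lone libraries, such as the epithelial marker Cdh16 (log2 13.9). The log2 fold change of Zbp1 lay between 2.02 and 2.39 under the alternatives tried. Zbp1 is on chromosome 2 (173206612 to 173218923), and its exons are shared with no other annotated gene.

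**Figure D2:**
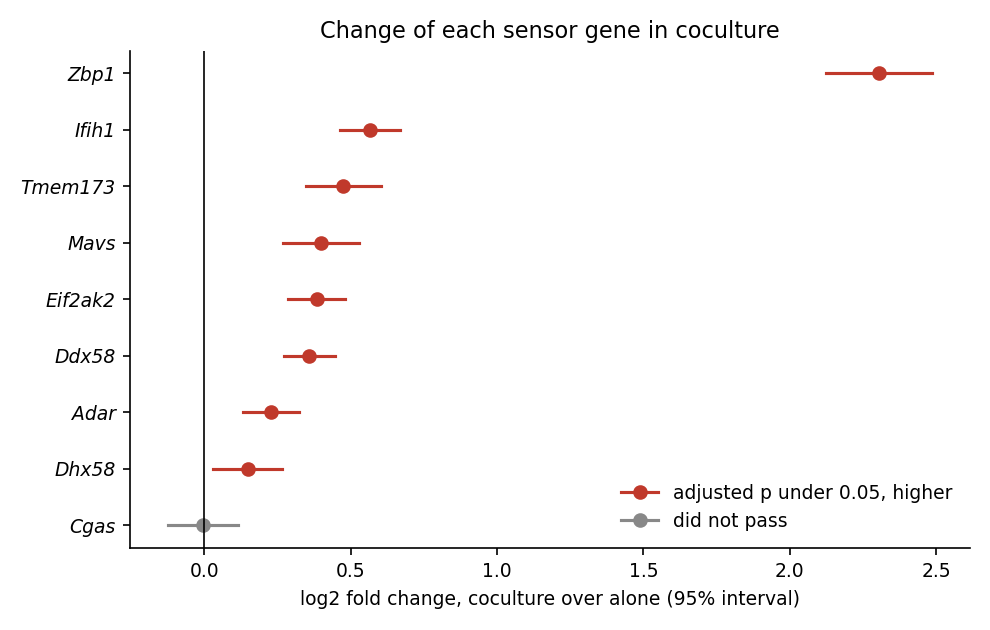
Log2 fold change of the 9 tested sensor genes, coculture over alone (horizontal axis), with 95% intervals from the edgeR fit. Zbp1 stands at 2.31, the other genes called higher lie between 0.15 and 0.57, and Cgas lies at 0.

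The RNA helicases of the RIG-I family moved by different amounts. Ddx58, which encodes RIG-I (ENSMUSG00000040296, chromosome 4, 40203773 to 40239828), had 278.9, 277.1 and 264.1 CPM in coculture, against 211.1, 213.1 and 215.1 CPM alone. Its groups lay apart, and it was 1.28-fold higher (log2 0.36, SE 0.0425, adjusted p = 1.59e-07). Ifih1, which encodes MDA5 (ENSMUSG00000026896, chromosome 2, 62595798 to 62646255), had 116.5, 116.1 and 115.9 CPM in coculture, against 75.4, 81.4 and 78.4 CPM alone. The cocultured libraries were nearly equal, with an SD of 0.246% of their mean, and all were above the lone ones. Ifih1 was 1.48-fold higher (log2 0.57, SE 0.0496, adjusted p = 8e-10). The 95% interval of its log2 fold change, 0.46 to 0.67, stood above that of Ddx58, 0.27 to 0.45.

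Dhx58 encodes LGP2, a helicase that lacks the signalling domain of the other RIG-I family members and tunes their activity (ENSMUSG00000017830, chromosome 11, 100694884 to 100704271). It had 87.8, 80.7 and 83.5 CPM in coculture, against 80.7, 75.2 and 71.6 CPM alone. The groups met, because cocultured library B and lone library A stood at the same level. The change was 1.11-fold (log2 0.15, SE 0.0572, adjusted p = 0.0433, edgeR quasi-likelihood test), the smallest among the genes called. The call was lost under 10 of 18 alternatives, with adjusted p from 0.0107 to 0.198 over all of them. Among these it was lost without cocultured replicate A (0.184) or C (0.0662) and without lone replicate B (0.112) or C (0.198). Within each library the ratio of the FPKM of Dhx58 to that of Ddx58 was 0.679, 0.627 and 0.681 in coculture, against 0.823, 0.760 and 0.717 alone, without overlap. The ratio of Ifih1 to Ddx58 ran the other way, at 0.361, 0.362 and 0.379 in coculture, against 0.308, 0.330 and 0.315 alone. Such ratios do not depend on how libraries are scaled, and they were not tested, since the smallest two-sided p of an exact permutation test at this group size is 0.1.

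Mavs encodes the mitochondrial adaptor through which RIG-I and MDA5 signal (ENSMUSG00000037523, chromosome 2, 131234063 to 131248025). Its level was 62.1, 62.8 and 65.5 CPM in coculture, against 50.6, 45.3 and 48.8 CPM alone. The groups did not overlap, and Mavs was 1.32-fold higher (log2 0.40, SE 0.0629, adjusted p = 1.31e-05). The ratio of its FPKM to that of Ddx58 overlapped between the groups, at 0.490 ± 0.0289 in coculture and 0.477 ± 0.0285 alone (SD, n = 3).

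The genes of the DNA route differed from each other. Cgas, the DNA sensor (ENSMUSG00000032344, chromosome 9, 78430526 to 78443237), had 85.1, 77.7 and 76.2 CPM in coculture, against 75.5, 83.0 and 80.7 CPM alone. Its groups overlapped, with cocultured library A above every lone library and lone library A below every cocultured one, and the log2 fold change was -0.0039 with a 95% interval from -0.12 to 0.12 (adjusted p = 0.971), which spans changes of that size in either direction. Its sign turned without cocultured replicate B (0.0094) or C (0.033) and without lone replicate B (0.023) or C (0.0035). Tmem173, which encodes STING, the receptor of the cGAS product (ENSMUSG00000024349, chromosome 18, 35733678 to 35740554), had 60.0, 61.2 and 62.8 CPM in coculture, against 44.1, 44.8 and 43.5 CPM alone. All cocultured libraries were above all lone ones, and Tmem173 was 1.39-fold higher (log2 0.48, SE 0.0615, 95% interval 0.35 to 0.60, adjusted p = 6.6e-07). The 2 intervals lay apart. The ratio of the FPKM of Tmem173 to that of Cgas was 1.26, 1.41 and 1.48 in cocultured libraries A, B and C, against 1.05, 0.967 and 0.965 in lone libraries A, B and C, without overlap.

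**Figure D3:**
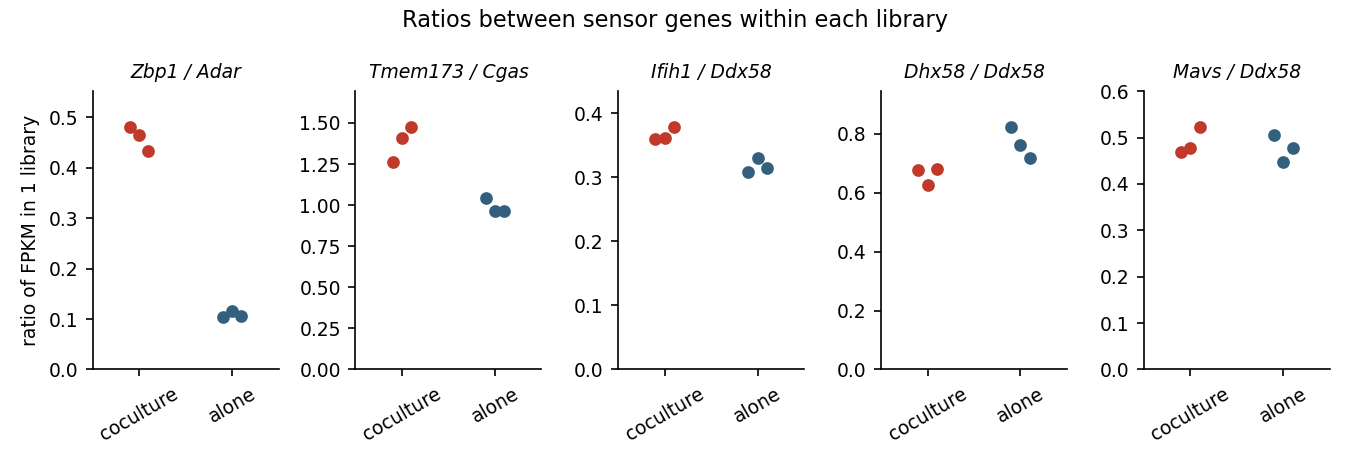
Ratio of the FPKM values of 2 sensor genes within each library (vertical axes, each from 0), for cocultured and lone cells. Zbp1 to Adar and Tmem173 to Cgas lie higher in coculture without overlap, Ifih1 to Ddx58 likewise by less, Dhx58 to Ddx58 lower without overlap, and Mavs to Ddx58 overlaps.

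Eif2ak2 encodes PKR, a kinase that RNA duplexes activate and that blocks translation by phosphorylating eIF2 alpha (ENSMUSG00000024079, chromosome 17, 78852564 to 78882573). It had 201.9, 183.4 and 188.6 CPM in coculture, against 144.0, 146.2 and 149.3 CPM alone. The groups lay apart, and Eif2ak2 was 1.30-fold higher (log2 0.38, SE 0.0472, adjusted p = 2.93e-07).

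Adar encodes the enzyme that turns adenosine into inosine in RNA duplexes, and it shares a Z-binding domain type with ZBP1 (ENSMUSG00000027951, chromosome 3, 89715022 to 89753446). It had 303.0, 281.6 and 299.3 CPM in coculture, against 252.5, 265.5 and 237.3 CPM alone. The groups did not overlap, although the gap was small, and Adar was 1.17-fold higher (log2 0.23, SE 0.0465, adjusted p = 0.00034). The FPKM ratio of Zbp1 to Adar, the genes whose products share that domain type, was 0.481, 0.466 and 0.433 in coculture, against 0.104, 0.115 and 0.106 alone. Gene counts do not separate the long, interferon-inducible form of Adar from the short, constitutive one. By the GENCODE M21 annotation of GRCm38, 1365 of the 8118 exonic bases of Adar, or 16.8%, also belong to Chrnb2, a receptor subunit gene on the opposite strand. Chrnb2 had 161, 134 and 190 counts in coculture, against 237, 259 and 263 counts alone, and was called lower (log2 -0.60, adjusted p = 0.000386).

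Trex1, the main cytosolic DNA exonuclease, had 0 counts in all 6 libraries, and this 0 cannot be read as absence of its transcript. All 1147 exonic bases of Trex1 (ENSMUSG00000049734, chromosome 9, 109057933 to 109059734) also belong to Atrip, a gene of the DNA damage response on the same strand. Of 133 protein-coding genes whose exons are wholly shared with a gene of the same strand, 120 (90.2%) had no count in any library, as had 35 of 35 whose exons are wholly shared with an opposite-strand gene. Among 15460 protein-coding genes that share no exonic base the share was 35.1%. Atrip itself had 337, 354 and 363 counts in coculture, against 397, 382 and 449 counts alone, and did not pass the test (log2 -0.17, adjusted p = 0.151). For the other sensor genes the shared part was at most 4.9% of exonic bases apart from the 16.8% of Adar.

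Compared per gene length, the order of the sensor genes differed between the groups in the places of Tmem173, of Zbp1 and of the closely spaced leading genes. In coculture the highest mean FPKM was that of Ddx58 (38.7 ± 1.16), then Eif2ak2 (37.3 ± 1.82) and Adar (36.2 ± 1.35), neighbours that did not differ beyond their SDs (n = 3 throughout). Tmem173 (26.6 ± 0.617) and Dhx58 (25.6 ± 1.07) came next and were as close to each other, as were Cgas (19.3 ± 1.13) and Mavs (18.9 ± 0.535). Zbp1 (16.7 ± 1.08) and Ifih1 (14.2 ± 0.0340) were lowest and lay apart. In lone cells Adar (30.9 ± 1.71), Ddx58 (30.2 ± 0.272) and Eif2ak2 (28.6 ± 0.515) led, of which Adar and Ddx58 were within an SD of each other and Eif2ak2 lay below both. Dhx58 (23.1 ± 1.41) followed, then Cgas (19.3 ± 0.913) and Tmem173 (19.1 ± 0.274), which were within an SD of each other. Mavs (14.4 ± 0.816), Ifih1 (9.58 ± 0.359) and Zbp1 (3.36 ± 0.350) were lowest in lone cells and each lay apart from its neighbour. These are levels, and the FPKM of Adar rests on a length that includes the bases shared with Chrnb2. The deposited length of Tmem173, 2302 bases, differs from the 2741 exonic bases of GENCODE M21. With the deposited counts kept and the longer length used, its mean FPKM would be 22.3 in coculture and 16.1 alone, in coculture below Dhx58. Reads on any bases that only the longer model holds are not in those counts, so its place in the order is uncertain.

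**Figure D4:**
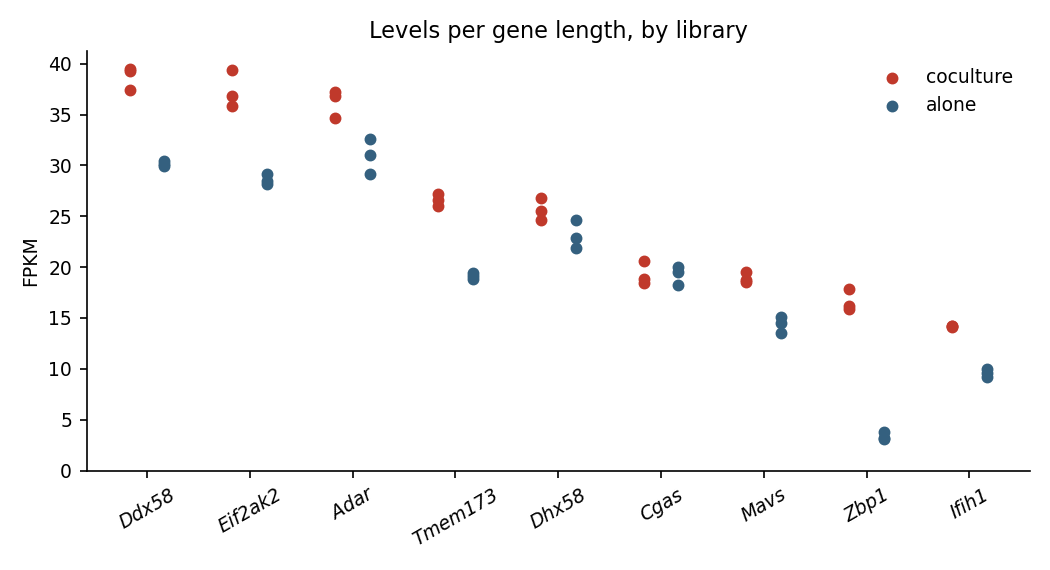
Deposited FPKM of the 9 tested sensor genes (vertical axis, from 0) in each cocultured and each lone library, ordered by the cocultured mean. Zbp1 is lowest in lone cells, at 3.36 on average, and Ifih1 is lowest in coculture, at 14.2.

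Genes that act beside or below the sensors were read from 7 lists. Over all genes tested 21.7% were called higher and 15.2% lower, and no list count was tested against these shares. Of 14 cofactors and other sensors 13 were tested, with 2 called higher and 3 lower and a median log2 fold change of -0.034. Ifi204, a DNA-binding member of the interferon-inducible p200 family, was at 82.5 ± 0.984 CPM in coculture and 35.8 ± 0.589 CPM alone, 2.30-fold higher (SD, n = 3 each). Ddx60, a helicase described as a RIG-I cofactor, was at 29.6 ± 0.747 CPM in coculture and 18.5 ± 2.77 CPM alone, 1.61-fold higher. Ddx41, a helicase linked to DNA sensing, was at 94.97 ± 6.57 CPM in coculture and 114.8 ± 2.41 CPM alone, a fall of 1.21-fold. Near-identical relatives exist for Ifi204, so the assignment of its reads is uncertain.

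Among 21 genes of the signal relay, the adaptors, kinases and transcription factors that carry the signal on, 6 were called higher and 2 lower, with a median of -0.0034. The 2 lower calls were 0 without cocultured replicate A and 1 without cocultured replicate B, lone replicate B or lone replicate C, and without cocultured replicate B the calls were 5 in all. In the 3 limma fits on FPKM 5 genes were called higher and 0 lower. Mlkl, the pore-forming executor of necroptosis, had 69.8, 66.8 and 64.4 CPM in coculture, against 30.2, 31.8 and 32.4 CPM alone, without overlap, and was 2.12-fold higher (adjusted p = 6.61e-13). Irf7, the interferon-inducible factor that drives interferon alpha genes, was at 591.0 ± 5.57 CPM in coculture and 288.2 ± 14.3 CPM alone, 2.05-fold higher. Fadd, a death domain adaptor, was 1.29-fold higher, at 17.4 ± 1.55 CPM in coculture and 13.5 ± 0.671 CPM alone, a call lost without cocultured replicate B (log2 0.31, adjusted p = 0.0589). Direct partners of the sensors are also given here, chosen after their values were seen. Ripk3, the kinase that links ZBP1 to MLKL, was at 71.4 ± 7.71 CPM in coculture and 71.3 ± 3.52 CPM alone (95% interval of log2 from -0.13 to 0.14, adjusted p = 0.969). Tbk1, the kinase shared by the MAVS and STING routes, was at 93.2 ± 4.39 CPM in coculture and 93.1 ± 6.04 CPM alone (interval from -0.12 to 0.11). Irf3, the factor that TBK1 activates, was at 38.4 ± 2.14 CPM in coculture and 42.9 ± 2.77 CPM alone (interval from -0.31 to -0.013, adjusted p = 0.0830).

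Of 17 genes that damp the signal 15 were tested, with 5 called higher and 3 lower and a median of 0.0097. The lower calls numbered 1 when cocultured replicate A, B or C or lone replicate A or C was left out, and 0 in the limma fits on FPKM, while 4 or 5 genes were called higher in all of these. Without cocultured replicate A the calls were 5 in all. Smurf1, a ubiquitin ligase reported to target MAVS, was at 64.3 ± 4.24 CPM in coculture and 28.4 ± 3.45 CPM alone, 2.26-fold higher. Trim30a, an interferon-inducible ligase of mice, was at 215.1 ± 6.37 CPM in coculture and 145.8 ± 6.06 CPM alone, and Usp18, which removes ISG15 from proteins and dampens interferon receptor signalling, was at 197.1 ± 12.7 CPM in coculture and 139.7 ± 11.6 CPM alone. Of 19 genes that degrade, process or shield nucleic acids 16 were tested, with 6 called higher and 4 lower and a median of 0.048. The lower calls were 2 without cocultured replicate A or C and in the limma fits on FPKM. Dnase2a, the lysosomal DNase, was at 87.5 ± 3.24 CPM in coculture and 119.2 ± 2.91 CPM alone, a fall of 1.36-fold. Pld4, a lysosomal exonuclease, was 1.26-fold higher, at 244.97 ± 3.31 CPM in coculture and 194.1 ± 7.20 CPM alone. Dcp2, the decapping enzyme, was 1.19-fold higher.

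A list of 15 genes held the PKR substrate, the other eIF2 alpha kinase genes Eif2ak1, Eif2ak3 and Eif2ak4, and the stress response downstream. Of these 15 genes 2 were called higher and 5 lower, with a median of -0.048. Eif2ak4, which is not downstream of PKR, was among the lower ones (log2 -0.18). Asns, the asparagine synthetase induced by ATF4, was at 131.3 ± 4.79 CPM in coculture and 204.5 ± 20.6 CPM alone, a fall of 1.56-fold. Ppp1r15a, which directs the phosphatase of eIF2 alpha, was at 38.6 ± 3.46 CPM in coculture and 57.0 ± 3.52 CPM alone, a fall of 1.48-fold. Ddit3, which encodes the stress factor CHOP, was 1.43-fold higher, at 26.1 ± 2.10 CPM in coculture and 18.2 ± 0.718 CPM alone. The remaining 8 genes did not pass. The DESeq2 Wald test and the limma fits on FPKM called 1 gene higher and 4 lower. Eif2s1, which encodes the substrate eIF2 alpha and was chosen after its values were seen, was at 229.2 ± 7.32 CPM in coculture and 234.9 ± 5.89 CPM alone (95% interval of log2 from -0.13 to 0.054, adjusted p = 0.564).

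The 21 interferon genes listed had 0 counts in total over the cocultured libraries and 5 over the lone ones, 3 of which were of Ifnb1, and 18 of the 21 had no count in any library. A count of 0 over 3 cocultured libraries allows a level of up to 0.0639 CPM (3 counts over the group), a limit that covers counting error only. It leaves out any reads lost because they matched several of these related genes. Of the 4 receptor chains, all tested, 0 were called higher and 1 lower. Ifnar2, a chain of the type I interferon receptor, was at 45.5 ± 2.27 CPM in coculture and 56.4 ± 0.880 CPM alone, a fall of 1.24-fold (adjusted p = 0.000353). The rise of interferon targets in these libraries was known when their list was chosen, and their count is no independent evidence. All 27 interferon targets listed were tested, with 24 called higher and 0 lower and a median log2 fold change of 0.60, which includes Irf7 and Usp18 of the lists above. Mx1, a gene of the Mx GTPase family, was at 12.6 ± 1.39 CPM in coculture and 2.31 ± 0.329 CPM alone, 5.46-fold higher. Oasl2, of the oligoadenylate synthetase family, was 4.03-fold higher, at 148.2 ± 7.10 CPM in coculture and 36.8 ± 2.92 CPM alone, and Isg20, an exonuclease, was 3.61-fold higher, at 30.2 ± 0.504 CPM in coculture and 8.41 ± 0.818 CPM alone. The fold change of Zbp1 thus lay between those of Mx1 and Oasl2, and those of the other 7 sensor genes called were at most 1.48-fold. Mx1, Oasl2 and Isg20 were the targets with the largest changes. Some targets called higher lay in the range of those sensor genes, such as Parp14 (1.31-fold), Oas1a (1.21-fold) and Rtp4 (1.13-fold). Oas2, Oas3 and Irf9 did not pass.

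**Figure D5:**
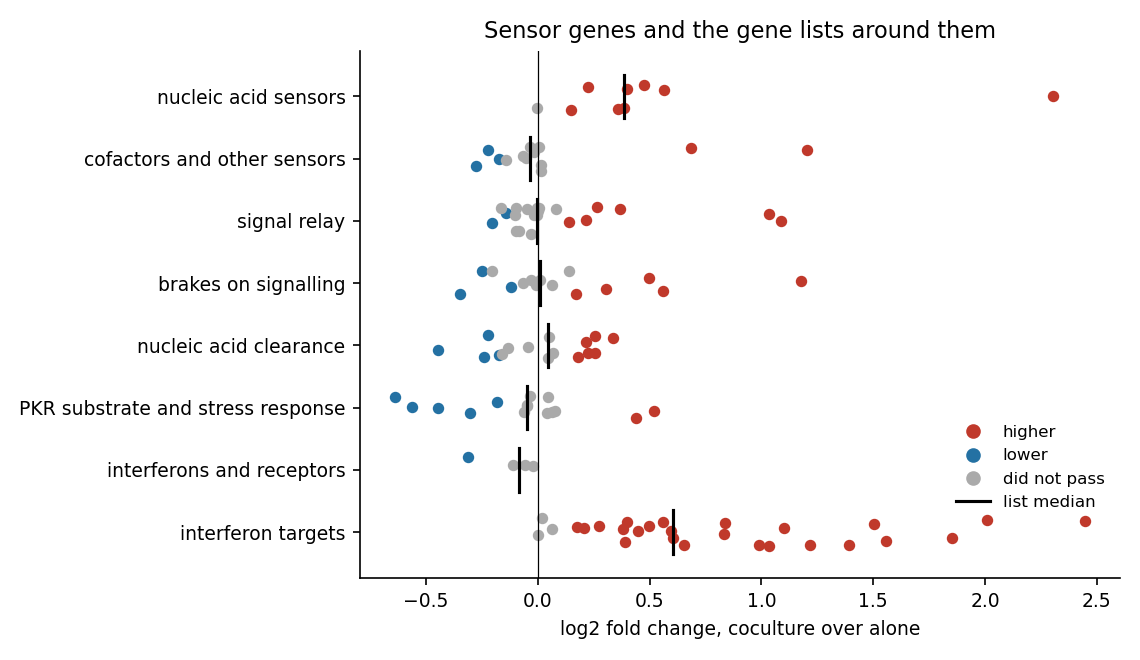
Log2 fold change, coculture over alone, of each tested gene of the sensor group and of 7 lists around it (1 point per gene, with random vertical spread), coloured by call, with the median of each list as a black line. The medians of the sensors (0.38) and of the interferon targets (0.60) lie right of 0, and those of the other 6 lists lie within 0.1 of 0.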

How the data were processed

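Raw counts per gene and FPKM values of the same 6 libraries were deposited by the authors, per the file headers. The build mm10 and the tools edgeR 3.22.5, DESeq2 1.20.0, featureCounts 1.5.0-p3 and HISAT2 2.0.5 stand in the submitters' processing notes, with no role named. How counting treated strand is not stated there. Poly-A RNA was selected and primed with random hexamers, per the labels' protocols. The sensor genes and lists were chosen with earlier results of these data known.

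Counts were tested across all genes with edgeR 4.0.16 in R 4.3.3 (TMM scaling, filterByExpr, quasi-likelihood F test, group term only, 12972 genes), with Benjamini-Hochberg adjustment. SE was taken as the size of the log2 change divided by the root of F, and 95% intervals use the moderated degrees of freedom. CPM uses TMM-scaled totals. Levels of different genes were compared as FPKM, which equalled count over gene length and total within a factor of 0.996 to 1.00 per library. Within groups every pair of libraries was further apart than sampling noise allows (chi-square divided by its degrees of freedom, 2.98 to 4.57). No column belonged to another sample (0) and no row lacked a gene (0). Named list genes were up to 3 per list, past the threshold, ranked by size of change, and at 1 CPM or more in the higher group, or else the 2 of highest CPM. Ripk3, Tbk1, Irf3 and Eif2s1 stand outside this rule. Exon sharing was read from GENCODE M21. Alternatives were other scalings and filters, gene subsets, a replicate block, each library left out, DESeq2 1.42.0, and limma 3.58.1 (voom, and log2 FPKM with pseudocounts of 1 and 0.1).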

Additional observations from a re-analysis of the deposited data

How the results depend on the processing

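The count of sensor genes called higher was 8, or 7 where Dhx58 was lost, and 0 were called lower under any of 18 alternatives. Ddx58, Ifih1, Mavs, Zbp1, Tmem173, Eif2ak2 and Adar were called higher under all 18. Cgas never passed, and its sign turned with at least 1 CPM in at least 3 libraries (0.0033) and where the fit held only genes whose lone cells averaged 1 CPM or more (0.012), with a range of -0.055 to 0.033 when 1 library was left out. Calls on the signal relay list numbered 5 in each of the 3 limma fits on FPKM and 5 to 7 with 1 library left out, against 8, and calls on the list of brakes numbered 4 in each of those FPKM fits and 5 to 8 with 1 library left out, against 8. Over all genes, limma on FPKM with a mean of at least 1 made 3159 calls, against 4793, on 10986 genes. The cause was not tested. By direction, higher calls on the signal relay list ran from 4 to 6 and lower ones from 0 to 2 over these alternatives, higher calls on the list of brakes from 4 to 5 and lower ones from 0 to 3, and lower calls on the clearance list from 2 to 4. Higher calls on the PKR list were 1 in DESeq2 and the FPKM fits, against 2. For the other 3 lists both directions stayed within 1.5 times their counts. Of the named list genes called, Fadd alone lost its call under an alternative (without cocultured replicate B). Ripk3 and Tbk1 never passed, and their signs turned. Ripk3 was at -0.0040 with upper quartile scaling, -0.0018 with no filter, -0.00041 with FPKM + 1 (the same with a mean FPKM of at least 1), -0.00054 with FPKM + 0.1 and -0.072 to 0.078 with 1 library left out. Tbk1 was at 0.0015 with DESeq2 size factors, 0.0018 in the DESeq2 Wald test, 0.0058 with the limit of 1 CPM in 3 libraries, 0.015 with that in lone cells, 0.0032 with FPKM + 1 (the same with a mean FPKM of at least 1), 0.0033 with FPKM + 0.1 and -0.050 to 0.032 with 1 library left out.

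The replicate letters were not taken to pair the libraries. Deviations of same-letter libraries from their group means correlated at 0.0014 to 0.035 across genes, and cocultured libraries B and C correlated best with the lone library of their own letter, whereas cocultured library A correlated best with lone library B. With the letter as a replicate block the fit called 8 sensor genes higher and 0 lower, and 2815 genes higher and 1951 lower in all. For the interferon genes the depth sets only an upper limit on assigned reads, which leaves out any that matched several genes. The 0 of Trex1 gives no level.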
